A study of Mus musculus with 8 samples.

Results

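The 40 mouse genes described here encode proteins of mitosis, from the kinases and cyclins that start chromosome segregation to the motors and scaffolds that finish cell division. They were listed by name, with earlier results of these data known. A locus of its own with a valid estimate in both columns was found for 39 of the 40 in the female KO table, among 22864 such genes, for 38 in the male KO table, among 22458, and for 37 in the KI table, among 22271. Foxm1, a transcription factor that drives mitotic genes, shared a merged locus with 4933413G19Rik in all 3 tables and has no value of its own. Kif22, a kinesin that binds chromosomes, was merged with Maz in the male and KI tables, and Birc5, which encodes survivin, was merged with Afmid and Syngr2 in the KI table.

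The RNA came from differentiating myoblasts grown from muscle satellite cells, the stem cells of skeletal muscle, of B6/129 mice whose age is not given. Cells were grown in Ham's F10 with 20% serum, 2.5 ng/mL FGF and 2.5 µM 4-hydroxytamoxifen, sorted for the TdTomato reporter and differentiated for 24 h. WT_UTX_Female carried Pax7-CreER and Rosa26-Floxed-TdTomato, and KO_UTX_Female carried UTX-Floxed besides these. The Cre is driven from Pax7, so that deletion and reporter depend on a cell having expressed that satellite cell gene, and the female control also carried Cre and was grown with tamoxifen. WT_UTX_Male and KO_UTX_Male are named as the male counterparts, and Ctrl-KI_UTX_Female and KI_UTX_Female as a female knock-in and its control. No genotype is given for these 4 groups, and the KI allele is not described. UTX is the protein of Kdm6a, an X-linked demethylase of lysine 27 on histone H3. Each KO or WT group is 1 library, and each KI column pools 2 libraries, 8 libraries in all. No source used here says that they came from separate animals, and with 1 column per group no comparison within a table has a test. Values are FPKM, sequenced fragments scaled for transcript length and library size, with the authors' lower and upper bound around each. The read depth is unknown. The tables were estimated separately, so a level is compared only within its table, and only ratios of mutant to control are set against each other across tables.

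A myoblast stops dividing when it differentiates, and the proteins of mitosis are made almost only in cells that still pass through the cycle. Cyclin B and Cdk1 drive entry into mitosis, the Aurora and Polo kinases build the spindle, and the spindle checkpoint holds the anaphase-promoting complex (APC/C) until the chromosomes are attached. The APC/C then marks securin and cyclin B for destruction, and the central spindle directs the cut between the daughter cells. Transcription of many of these genes peaks in G2 and mitosis through promoter elements named CHR (cell cycle genes homology region) and CCAAT, read by the MuvB complex with B-Myb and Foxm1 and by NF-Y.

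The libraries differed in more than the mitosis genes. Kdm6a stood at 20.8 FPKM in WT females and 16.9 in KO females, at 7.87 in male WT and 2.08 in male KO, and at 12.8 in Ctrl-KI and 13.2 in KI. The female KO value is 0.29 lower on the log2 scale, so the library labelled female KO kept most of the transcript reading, and this summed FPKM does not tell whether the floxed part was lost. Markers of differentiated muscle were present in every column, and Pax7 was found at 3.30 to 16.3 FPKM. Markers of other cell types were unequal between columns. The summed FPKM of 10 fibro-adipogenic markers went from 362 to 789 in the female table, from 46.9 to 147 in the male table and from 30.8 to 515 in the KI table. The endothelial markers summed to 23.9 and 39.4, 2.08 and 71.1, and 2.76 and 9.68, control first, and Emcn alone was at 0.0268 in male WT and 40.6 in male KO. The immune markers summed to 8.96 and 16.2, 1.51 and 9.79, and 1.05 and 39.0, of which Lyz2 made up 31.0 in KI, while Ptprc, their general leukocyte marker, stayed between 0 and 0.224 in the 6 columns. Pericyte and smooth muscle markers summed to 801 and 474, 2020 and 738, and 2350 and 2020. The highest marker of each column made up most of its sum. It was at 663 and 312 FPKM in females, where it was Acta2, at 2000 and 724 in males, and at 2290 and 1820 in KI. By count, 5 of 9, 5 of 8 and 7 of 9 of these markers were above their control column. The 2 erythroid markers found summed to at most 0.0996 FPKM in a column. Of the markers found, 9 of 10, 9 of 10 and 10 of 10 fibro-adipogenic genes were above their control column in the female, male and KI tables. So were 9 of 10, 9 of 10 and 8 of 9 endothelial genes, and 7 of 9, 7 of 8 and 7 of 8 immune genes. Of all genes with at least 1 FPKM in a column, 43.3%, 48.4% and 42.6% were above the control. In these 3 lists, listed at 0 were Lum in both male columns and Ctrl-KI, Tie1 in male WT and Ctrl-KI, Emcn in Ctrl-KI, C1qa in female WT and Ctrl-KI, Emr1 in female and male WT, Ptprc in female WT and C1qb in female KO. The part of these cells in the values of the mitosis genes was not tested.

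The mitosis genes were higher in KO than in WT in both sexes, and close to their control in KI. The median over the members went from 2.74 FPKM in female WT to 6.41 in female KO, from 1.67 in male WT to 9.94 in male KO, and from 1.10 in Ctrl-KI to 1.45 in KI. Ratios are given as log2 of (FPKM + 1) in the mutant over (FPKM + 1) in the control, which understates the change of low genes. On that scale the median member ratio was 0.96 in females, 1.88 in males and 0.17 in KI, and the median of all genes with at least 1 FPKM in a column was -0.08, -0.02 and -0.04. In these bulk samples, fewer cells of a type and less RNA per cell cannot be told apart.

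At least a 2-fold ratio higher in KO was reached by 17 of 39 members in females, where 4.49% of all genes were that much higher. In males it was 37 of 38 members, with 9.9% of all genes, and in KI 0 of 37, with 3.86% of all genes. With 1 FPKM added, a gene under 1 FPKM in both columns cannot reach 2-fold in either direction. In KI 21 of the 37 members could reach it, whereas all genes counted here have at least 1 FPKM in a column. A ratio at least 2-fold lower was found for 0 members in females (4.4% of all genes), 0 in males (6.47%) and 1 in KI (0.893%), the securin gene Pttg1. Any excess over the control column was found for 38 of 39, 38 of 38 and 32 of 37 members, beside 43.3%, 48.4% and 42.6% of all genes. The 17 members past 2-fold in females were past it in males too, beside 1.7% of all genes kept in both KO tables. The members just past the threshold in females were Cdca8, Spag5 and Ccnb1, each at 1.02, and those just short of it were Nusap1 at 0.98 and Ect2 and Aurka at 0.96. Of the members with their own locus, 39, 38 and 21 had at least 1 FPKM in a column of their table.

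**Figure D1:**
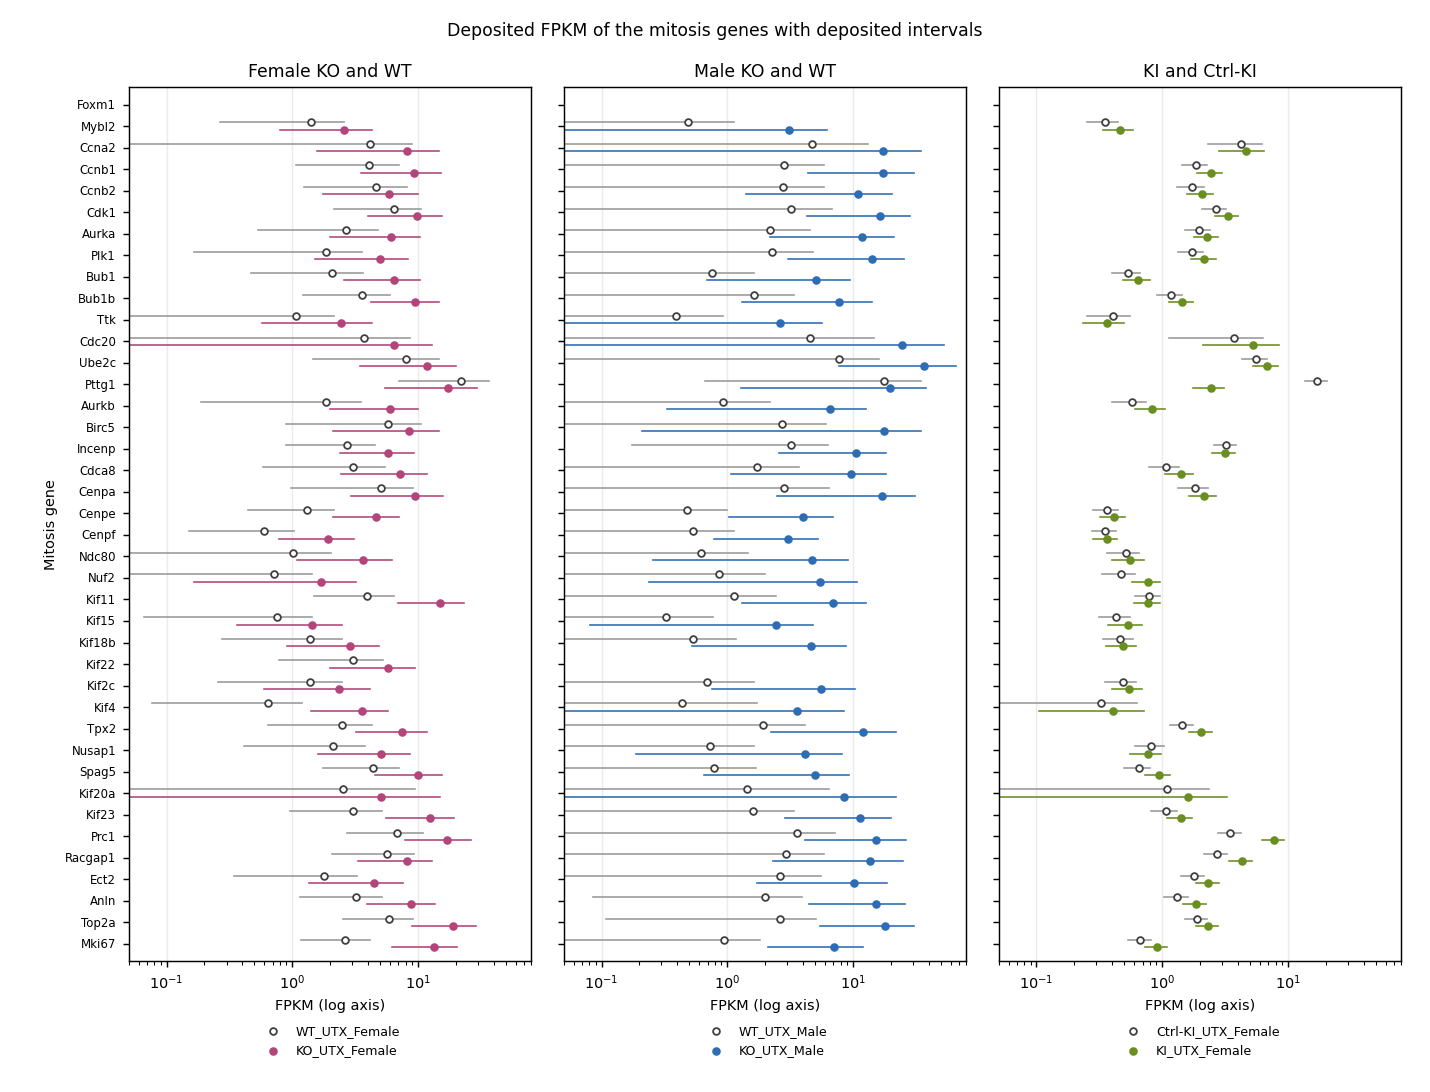
FPKM of each mitosis gene (log axis, 1 row per gene) in the 3 tables, open circles for the control column and filled circles for the mutant column, with the deposited lower and upper bounds as lines, which run to the left edge where the bound is 0. In KO the filled circles lie to the right of the open ones for every gene but Pttg1 in females. In KI most pairs lie close together, apart from Pttg1, Prc1, Nuf2 and Racgap1. Rows without points are merged loci.

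The deposited bounds are wide for genes at these levels. Their width had a median of 160% of the FPKM in female WT, 134% in female KO, 214% in male WT and 172% in male KO, against 46.4% in Ctrl-KI and 45.4% in KI. The lower bound reached 0 in a column for 31 of the 38 members in males. The intervals of mutant and control stood apart, mutant higher, for 4 members in females (Kif11, Kif4, Kif23 and Mki67), beside 0.664% of all genes. They stood apart for 4 members in males (Cenpe, Anln, Top2a and Mki67), beside 0.603%, and for 2 in KI (Prc1 and Racgap1), beside 8.27%. Pttg1 was the single member with intervals apart in the lower direction, in KI, beside 3.73% of all genes. For the other members the intervals of mutant and control overlapped.

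The FPKM tables do not state how libraries were scaled, and rescaling matters for KI. When FPKM was rescaled to TPM, a scale on which each column has the same sum, over all loci, those without a gene symbol included, the median of all genes moved to 0.10 in females, -0.70 in males and -0.77 in KI. The member medians on that scale were 1.27, 0.99 and -0.20, so the KI members were below their control, though less so than the median gene, and 1 of 37, Prc1, was above it. Over loci with a symbol only, the member medians were 1.27, 2.36 and 0.31. Loci without a symbol numbered 0 in females, 5680 in males and 5971 in KI, so in females both TPM scales are the same. Both KO medians were positive on each scale, and the small KI excess was not. On TPM over all loci 38 of 39 female and 37 of 38 male members were above WT. Of the genes kept in both KO tables, 54.3% and 15.6% were above WT on that scale.

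The promoters of the members are described next. The members were listed as mitosis genes, and CHR and CCAAT are known elements of many such genes. The motif shares below follow from that choice and do not bear on KO. RefSeq promoter windows (GRCm38.p6, another build than the mm9 of the tables) of 250 bases before to 50 after the start were matched to 34 of the 40 members, in 36 windows. The CHR was searched as TTTGAA on both strands and as TTCGAA, which reads the same on each strand. The CCAAT box was searched as CCAAT on both strands. A CHR match lay in 29 of the 36 windows (80.6%), against 19.2% of all 32851 windows in the table. Within 50 bases of the start it was found in 27 (75%), against 5.31% of all. CCAAT was found in 27 windows (75%, against 37.4% of all), and at least 2 copies in 19 (52.8%, against 11.7%). A CHR and a CCAAT match shared bases in 1 window, that of Cdca8. These are letter matches and say nothing of binding.

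The stretches below lie upstream of the start of 5 members past 2-fold in male KO and of Pttg1, the member that stood apart from them, with CHR and CCAAT matches in capitals. Cdk1 is at chr10:69352939-69353038 on the minus strand, Cdc20 at chr4:118437353-118437452 minus, Kif11 at chr19:37376282-37376381 plus, Top2a at chr11:99024190-99024389 minus, Mki67 at chr7:135716470-135716574 minus and Pttg1 at chr11:43426120-43426219 minus, all in GRCm38.p6.
Cdk1: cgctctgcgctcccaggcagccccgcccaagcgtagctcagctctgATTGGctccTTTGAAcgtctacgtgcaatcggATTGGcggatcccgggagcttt
Cdc20: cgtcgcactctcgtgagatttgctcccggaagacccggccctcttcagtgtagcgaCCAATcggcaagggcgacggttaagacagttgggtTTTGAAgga
Kif11: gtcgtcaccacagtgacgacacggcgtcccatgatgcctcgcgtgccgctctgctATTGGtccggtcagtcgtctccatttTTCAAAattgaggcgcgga
Top2a: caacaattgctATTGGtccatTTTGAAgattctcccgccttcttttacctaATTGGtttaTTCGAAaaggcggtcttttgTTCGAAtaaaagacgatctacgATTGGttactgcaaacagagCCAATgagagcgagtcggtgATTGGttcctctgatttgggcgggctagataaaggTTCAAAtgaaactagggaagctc
Mki67: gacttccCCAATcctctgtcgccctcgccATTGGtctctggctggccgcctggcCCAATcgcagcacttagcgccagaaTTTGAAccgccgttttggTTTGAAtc
Pttg1: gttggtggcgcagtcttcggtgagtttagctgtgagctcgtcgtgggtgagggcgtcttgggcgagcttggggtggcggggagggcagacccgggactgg
In the Cdk1 stretch a CHR match starts 71 bases before the start site, between CCAAT matches at 80 and 48. The rest of the Cdk1 window holds a CHR match 15 bases before the start and a CCAAT match at 208. In Cdc20 it starts 18 bases before the start and in Kif11 19, each behind 1 CCAAT match in the stretch. Top2a holds 4 CHR and 5 CCAAT matches in 200 bases, and Mki67 holds 2 and 3. The Pttg1 stretch holds neither, nor does the rest of its window. Neither motif was found either in the windows of Birc5, Mybl2, Nuf2 and Nusap1, which were higher in KO by 0.49, 0.57, 0.65 and 0.98 in females and by 2.32, 1.47, 1.80 and 1.58 in males. The 27 genes with a CHR match had a median female ratio of 0.96, against 0.65 for the 7 without, and in males 1.89 for 26 against 1.76 for 7.

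Among the factors that transcribe mitotic genes, Mybl2, the gene of B-Myb, was at 1.41 FPKM in WT females and 2.57 in KO females, at 0.492 and 3.12 in the males, and at 0.350 and 0.461 in Ctrl-KI and KI. It was higher in each KO library than in its WT, and the intervals overlapped in each table. The merged locus of Foxm1 and 4933413G19Rik stood at 2.44 and 4.35 FPKM in the females, 1.78 and 7.38 in the males, and 1.59 and 1.41 in the KI table, and its share of Foxm1 reads is unknown.

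Of the cyclins, Ccnb1 (cyclin B1) was at 4.10 FPKM in WT females and 9.36 in KO females, at 2.81 and 17.5 in the males, and at 1.85 and 2.44 in Ctrl-KI and KI. Its partner kinase Cdk1 was at 6.40 and 9.83, 3.20 and 16.4, and 2.66 and 3.34 in the same order. Both were higher in each mutant column than in its control, with ratios of 2.28 and 2.05 in males and 1.02 and 0.55 in females. Ccnb2 (cyclin B2) had the smallest female excess of any member above its control, from 4.68 to 5.88 FPKM, a ratio of 0.28, and in males went from 2.78 to 10.9, a ratio of 1.65. Ccna2, cyclin A2, which acts in S phase and G2, had ratios of 0.82, 1.67 and 0.10.

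The mitotic kinases Plk1 and Aurka, which mature the centrosomes and the spindle, had ratios of 1.05 and 0.96 in females, 2.22 and 2.01 in males and 0.22 and 0.15 in KI. Plk1 was at 1.87 FPKM in WT females and 4.95 in KO females, at 2.28 and 14.2 in the males, and at 1.73 and 2.17 in Ctrl-KI and KI. Among the checkpoint kinases, Bub1b, which encodes BubR1, was at 3.60 and 9.49, 1.62 and 7.69, and 1.17 and 1.45 FPKM. Both genes were more than 2-fold higher in each KO library than in its WT, and their KI intervals overlapped those of Ctrl-KI. Bub1 had ratios of 1.28, 1.80 and 0.10, and Ttk, the kinase Mps1, had 0.74, 1.38 and -0.04.

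The APC/C group held the member that departed from the rest. Cdc20, the activator of the APC/C in mitosis, was at 3.75 FPKM in WT females and 6.44 in KO females, at 4.56 and 24.6 in the males, and at 3.74 and 5.31 in Ctrl-KI and KI. Ube2c, the E2 enzyme that feeds it ubiquitin, was at 8.08 and 11.7, 7.72 and 36.7, and 5.56 and 6.80 FPKM. Both were higher in KO, with male ratios of 2.2 and 2.11 against female ratios of 0.65 and 0.49. The Cdc20 row overlaps Elovl1 in RefSeq, and reads of overlapping genes may not be told apart here.

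Pttg1 encodes securin, the inhibitor of separase that the APC/C destroys at anaphase. It was at 21.9 FPKM in WT females and 17.5 in KO females, at 17.6 in male WT and 19.8 in male KO, and at 17.1 in Ctrl-KI and 2.45 in KI. It was the highest member in each of the 3 control columns, and it was low in KI. Its intervals were 13.6 to 20.6 FPKM in Ctrl-KI and 1.77 to 3.13 in KI, and the KI ratio was -2.39. The KO ratios were -0.31 in females and 0.16 in males, with overlapping intervals. The locus is at chr11:43233750-43239750 in mm9 and overlaps no other RefSeq gene, and the next lowest KI ratios were -0.04, of Nusap1 and Ttk.

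The chromosomal passenger complex, which corrects faulty attachments through Aurora B, was higher in KO in all 4 members. Aurkb, its kinase, was at 1.87 FPKM in WT females and 5.97 in KO females, at 0.931 and 6.53 in the males, and at 0.575 and 0.834 in Ctrl-KI and KI. Birc5 was at 5.74 and 8.47 FPKM in the females and 2.73 and 17.7 in the males, so its ratio was 0.49 in one sex and 2.32 in the other. Cdca8, which encodes borealin, had ratios of 1.02, 1.98 and 0.22, and Incenp, the scaffold, had 0.87, 1.43 and -0.03.

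Kinetochore genes were low in level and higher in both KO libraries. Cenpe, a kinesin that carries chromosomes to the spindle equator, was at 1.30 FPKM in WT females and 4.62 in KO females, at 0.477 and 4.02 in the males, and at 0.364 and 0.416 in Ctrl-KI and KI. In males its intervals, 0 to 0.994 and 1.03 to 7.0 FPKM, just stood apart. Cenpf, Ndc80 and Nuf2, parts of the outer kinetochore, had ratios of 0.65 to 1.21 in females and 1.39 to 1.81 in males, and were under 1 FPKM in both columns of the KI table. Cenpa, the histone H3 variant of centromeres, was the highest of the 5 in level, with ratios of 0.77, 2.23 and 0.16.

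The spindle motors and assembly factors included some of the largest female ratios. Kif11, the motor that pushes the poles apart, was at 3.96 FPKM in WT females and 15.1 in KO females, at 1.14 and 6.95 in the males, and at 0.782 and 0.778 in Ctrl-KI and KI. Kif4, a chromosome-bound kinesin, was at 0.638 and 3.61, 0.437 and 3.58, and 0.329 and 0.408 FPKM. Tpx2, which activates Aurora A, was at 2.48 and 7.49, 1.91 and 12.1, and 1.45 and 2.04 FPKM. The female ratios of these 3 genes were 1.70, 1.49 and 1.28, the male ratios 1.89, 1.67 and 2.17, and the KI ratios 0.00, 0.08 and 0.31. The group's other genes, Kif15, Kif18b, Kif2c, Nusap1 and Spag5, had ratios of 0.47 to 1.02 in females, 1.38 to 1.96 in males and -0.04 to 0.24 in KI, and Kif22 had 0.74 in females.

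Genes of the central spindle and cytokinesis had the highest median KI ratio of the role groups, 0.30. Prc1, which bundles the microtubules of the central spindle, was at 6.84 FPKM in WT and 17.1 in KO females, at 3.58 and 15.4 in the males, and at 3.49 and 7.79 in Ctrl-KI and KI. Racgap1, a subunit of centralspindlin, was at 5.70 and 8.16, 2.96 and 13.6, and 2.73 and 4.28 FPKM. In KI their intervals stood apart, with ratios of 0.97 and 0.50. Racgap1 was the exception to an order that held for 36 of the 37 members with a value in all tables, a KI ratio below both KO ratios, since its female ratio was 0.45. Of all genes, 24.6% had that order. RefSeq places Rccd1 over part of Prc1, and the reads of overlapping genes may not be told apart here.

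Kif23, the kinesin of centralspindlin, was at 3.07 FPKM in WT females and 12.4 in KO females, at 1.61 and 11.4 in the males, and at 1.07 and 1.41 in Ctrl-KI and KI. Anln, the anillin of the contractile ring, was at 3.19 and 8.84, 2.01 and 15.2, and 1.32 and 1.85 FPKM. Both were higher in each KO library than in its WT, and Anln had the largest male ratio of all members, 2.43, with intervals apart. Ect2, which activates RhoA at the division plane, had ratios of 0.96, 1.63 and 0.26. Kif20a, another central spindle kinesin, had 0.78, 1.95 and 0.30, with intervals that reached 0 in all 6 columns. The Kif20a row overlaps Brd8 and Cdc23 in RefSeq. Exosc9 likewise overlaps Ccna2, Cstf1 overlaps Aurka and Oip5 overlaps Nusap1, and their reads may not be told apart here.

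Top2a, the topoisomerase that untangles sister chromatids, was at 5.86 FPKM in WT females and 19.1 in KO females, at 2.62 and 18.1 in the males, and at 1.89 and 2.33 in Ctrl-KI and KI. Mki67, the gene of the proliferation marker Ki-67, was at 2.65 and 13.3, 0.939 and 7.12, and 0.671 and 0.910 FPKM. Both genes were high in the KO libraries and little above their control in KI. The Mki67 ratio was 1.97 in females, the largest of any member there, 2.07 in males and 0.19 in KI. In mm9 Mki67 spans chr7:142881471-142908062 in the female table.

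**Figure D2:**
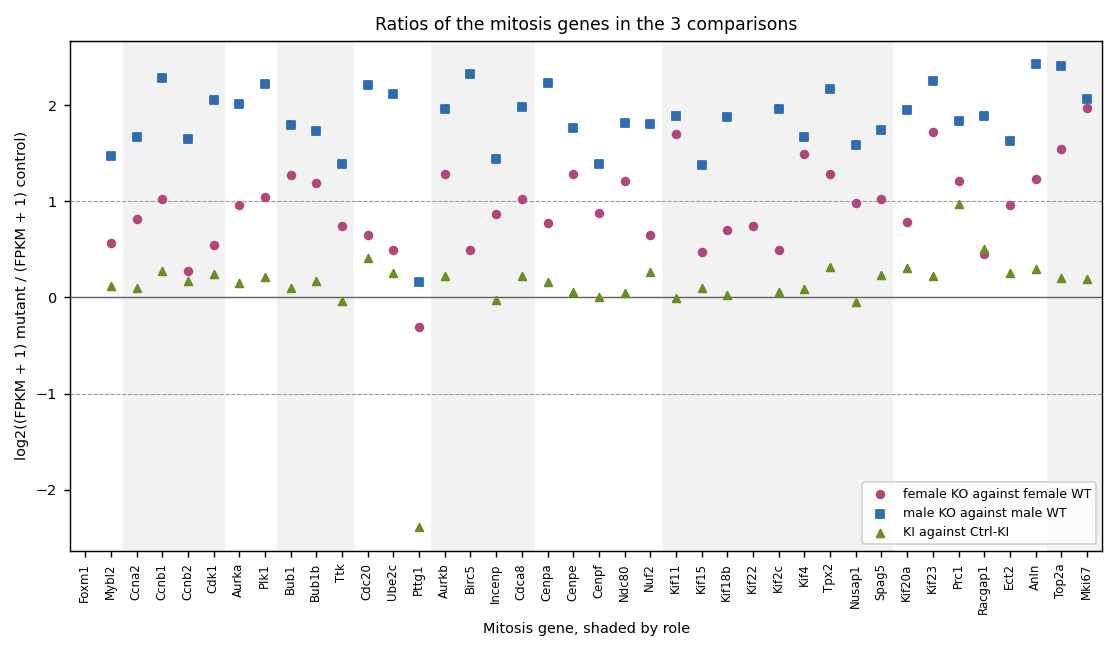
Ratio of mutant to control, log2 of (FPKM + 1) over (FPKM + 1), for each mitosis gene (x axis, shaded by role) in female KO (circles), male KO (squares) and KI (triangles); dashed lines mark 2-fold. On this scale the male ratio lies above the female ratio for all 38 genes with both, and the KI ratio of Pttg1 is -2.39. On TPM over all loci, which adds loci without a symbol in males and not in females, the male ratio is above for 9 of 38.

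On FPKM the male ratio was above the female ratio for 38 of 38 members, beside 58.6% of all genes, and on TPM over all loci for 9 of 38, beside 12.1%. The order of the sexes thus turned on the latter scale, with member medians of 1.27 in females and 0.99 in males. That scale adds 5680 loci without a symbol in males and 0 in females, so it is unlike between the sexes. The order on FPKM held for 38 of 38 with centred ratios, beside 53.6% of all genes. It also held for 38 of 38 on TPM over symbol loci, which treats the sexes alike, beside 57.9%. At least 1 FPKM was reached by 35 of 39 members in female WT and by 23 of 38 in male WT. These counts describe separate tables and do not compare the levels of the sexes. The difference between the sexes has 1 ratio on each side and no test.

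A limma fit across 10418 genes tested KO against WT, taking the female and male ratios as 2 values against 0, so that the spread between the sexes is the error and 1 residual degree of freedom is left. With Benjamini-Hochberg adjustment over all genes, 0 of the 38 members passed 0.05, and 0.0096% of all genes did in the higher direction. This was a single gene, Gt(ROSA)26Sor, the locus that holds the reporter. Its ratios of KO to WT were 3.99 in females and 4.31 in males, and their cause was not tested. The lowest adjusted p among the members was 0.0927, shared by Mki67 (mean ratio 2.02 ± 0.25, moderated SE), Kif23 (1.98 ± 0.27), Kif11 (1.80 ± 0.25), Top2a (1.98 ± 0.30) and Kif4 (1.58 ± 0.26). At an unadjusted p under 0.05, 37 of 38 members were higher, where 9.5% of all genes were, and 0 were lower, where 10.2% of all genes were. Kif4, Cenpf, Kif15 and Nuf2 were under 1 FPKM in WT of both sexes and were kept through KO alone. In male WT 23 members reached 1 FPKM, so others were kept in males through KO as well. The count of 37 thus rests in part on genes kept for their KO value. Pttg1 passed in neither direction (-0.07 ± 0.24, adjusted p = 0.903). When only genes with at least 5 FPKM in a column of each table were tested, limma called 2 of 25 members higher, Kif23 and Top2a. The lowest adjusted p in that limma fit was 0.0490, and 0.496% of all genes were called in that direction. Kif23 reached 5 FPKM only in KO in both sexes, and Top2a only in KO in males. The filter thus let both in, at least in males, through the column where they were high, so these calls are no separate support. With no filter on low values 9 of 38 members had an unadjusted limma p under 0.05, beside 7.47% of all genes. The lowest adjusted p among the members was then 0.663.

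**Figure D3:**
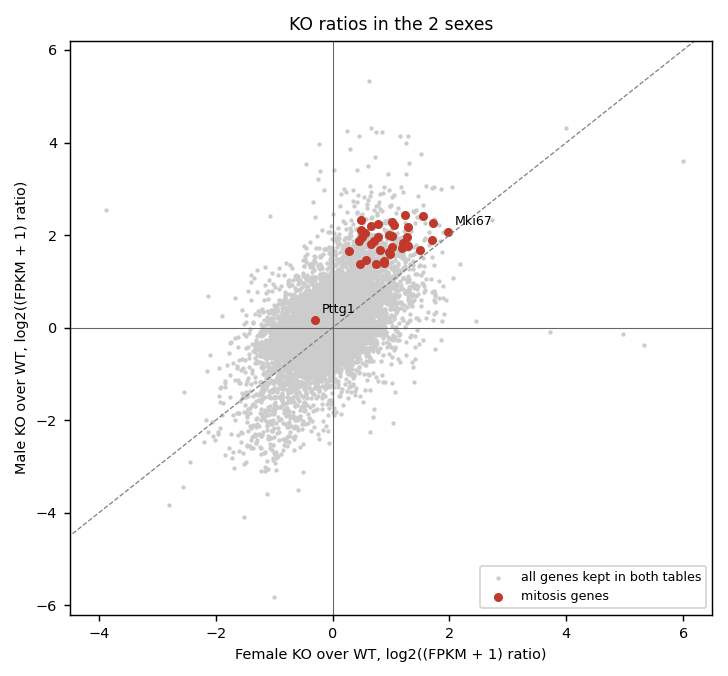
Male against female ratio of KO to WT, log2 of (FPKM + 1) over (FPKM + 1), for all genes kept in both tables (grey; 1 lies outside the axes) and for the 38 mitosis genes with both values (red); the dashed line marks equal ratios. The red points other than Pttg1 lie at positive ratios in both sexes, and all 38 lie above the line. That order held for 9 of 38 on TPM over all loci, which adds loci without a symbol in males and not in females.

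The difference between the KO and KI ratios was fitted in the same way, with the 2 KO ratios against the KI ratio, over 9609 genes, 21 members among them. The KI side is 1 ratio and adds no error of its own, so it is assumed to vary as the 2 KO ratios do. By limma 0 members and 0% of all genes passed in either direction, with an adjusted p of 0.9998 for each member. At an unadjusted p under 0.05, 5 members were higher in KO than in KI, where 0.937% of all genes were, and 0 lower, where 2.58% were. The 5 were Pttg1, Kif23, Top2a, Bub1b and Tpx2, with differences of 2.32, 1.76, 1.77, 1.29 and 1.41, and none passed after adjustment. For Pttg1 the difference lies in the KI ratio, and for the others in the KO ratios.

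Other genes of the cell cycle were compared as lists by name. Of 58 further mitosis genes, 7 of 55 found in females (4.49% of all genes), 47 of 52 in males (9.9%) and 1 of 50 in KI (3.86%) were at least 2-fold higher. Their medians were 0.58, 1.48 and 0.09. Of the genes found, 49, 51 and 25 had at least 1 FPKM in a column, as a 2-fold ratio requires. The highest in females were Ncapg, a condensin subunit, at 1.19, and Fbxo5, an inhibitor of the APC/C, at 1.12. In males they were Fam64a at 2.30 and Pbk at 2.13, and in KI the single gene past 2-fold was Tubb5, a beta-tubulin, from 72.7 to 151 FPKM. The lowest were Oip5 in females (-0.18), Bub3 in males (0.32) and Cdc25b in KI (-0.27). The medians of these genes lay below those of the 40 genes in each table.

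Genes of DNA replication and S phase stood closer to all genes in females than the mitosis genes did. Their medians were 0.28, 1.25 and 0.11. At least 2-fold higher were 2 of 48, 32 of 48 and 0 of 47, beside 4.49%, 9.9% and 3.86% of all genes. Of the S-phase genes found, 45, 48 and 36 had at least 1 FPKM in a column, as a 2-fold ratio requires. In females Mcm10, a replication initiation factor, was highest, from 1.22 to 9.03 FPKM, and E2f8, a repressor of the E2F family, lowest, at -0.57. In males Mcm3 (2.31) and Mcm6 (2.27), parts of the replicative helicase, were highest and E2f8 again lowest (-0.73). In KI, Rrm1, a ribonucleotide reductase subunit, was highest, from 13.2 to 25.6 FPKM. The order of medians in both KO tables was the mitosis genes, the further mitosis genes and then the S-phase genes, with no test of the difference.

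Regulators of G1 and cell cycle exit had medians of -0.17, 0.40 and 0.11. Ccnd1 (cyclin D1) was at 4.55 FPKM in WT females and 3.65 in KO females, at 43.3 and 410 in the males, and at 20.8 and 31.7 in Ctrl-KI and KI. Cdkn1c, the inhibitor p57, was at 55.0 and 26.9, 228 and 49.9, and 267 and 86.8 FPKM. Cdkn1c was lower in all 3 mutant columns than in their controls, and Ccnd1 had a ratio of 3.21 in males and -0.26 in females. The constitutive APC/C subunits had medians of -0.21, 0.03 and -0.04 with 0 genes past 2-fold in any table. The MuvB core and its partners had 0.05, -0.18 and -0.01 with 1, Mybl1 in males at 1.26. Of all genes, 4.49%, 9.9% and 3.86% were at least 2-fold higher, and 4.4%, 6.47% and 0.893% lower. On TPM over all loci the medians of the G1 genes in males and KI turned to -0.36 and -0.62, the APC/C median in males to -0.69, and the medians of the S-phase and further mitosis genes in KI to -0.34 and -0.21. On TPM over symbol loci the APC/C and MuvB medians in KI turned to 0.05 and 0.09, and on centred ratios the MuvB median in KI to 0.03.

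The markers of differentiated muscle went the other way from the mitosis genes. Their median ratio was -1.41 in females, -2.57 in males and -0.18 in KI. At least 2-fold lower were 7 of 10, 9 of 9 and 0 of 10, beside 4.4%, 6.47% and 0.893% of all genes. Ckm, the muscle creatine kinase, was at 147 FPKM in WT females and 20.2 in KO females, at 110 and 6.82 in the males, and at 143 and 152 in Ctrl-KI and KI. The satellite cell and myoblast markers went both ways, with medians of -0.65, -0.57 and -0.24. In females and in males 5 of 8 were below WT, among them Des (-1.19 in females and -0.86 in males) and Myod1 (-0.87 and -0.52). The 3 above WT were Pax7 (0.30 and 1.34), Sdc4 (0.59 and 0.51) and Vcam1 (0.52 and 2.26). In KI 6 of 8 were below Ctrl-KI. Of all genes, 7001 of 12344, 5901 of 11440 and 6364 of 11084 were below their control in the female, male and KI tables. On TPM over all loci 6 of 8 markers were below in males and 8 of 8 in KI. The medians of all genes were then -0.70 and -0.77. Pax7 was at 4.33 and 5.54, 5.82 and 16.3, and 3.33 and 3.30 FPKM.

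**Figure D4:**
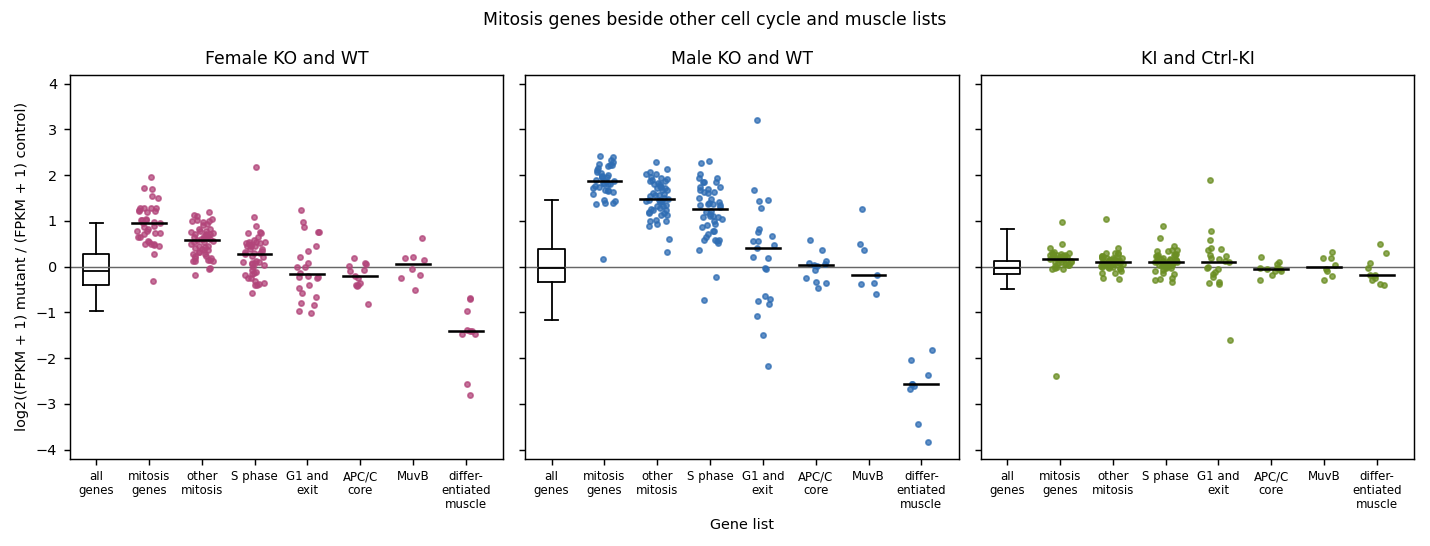
Ratio of mutant to control, log2 of (FPKM + 1) over (FPKM + 1), for each gene (points) of the mitosis genes and 6 other lists in the 3 tables, with black bars at the medians; the box gives the quartiles and median of all genes kept and its whiskers the 5 to 95 percentiles. Mitosis genes have the highest median and differentiated muscle the lowest in both KO tables, and in KI the list medians lie near 0.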

How the data were processed

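RNA-seq of 8 libraries was used as 3 gene tables (mm9). The submitters' processing notes list bedtools 2.16.2, Bowtie2 2.2.4, Cuffdiff, Cufflinks 2.2.1, edgeR, HTSeq 0.6.1 and TopHat2 2.0.12, with no roles. The annotation and the scaling are not given in the sources used here. For each column the authors deposited FPKM, a lower and an upper confidence bound (level not stated) and a status, per the file headers. There were 23115 loci for females, 28603 for males and 28748 for KI. Of these 0, 5680 and 5971 had no symbol, and 6, 61 and 15 with a symbol lacked a valid status. Locus starts are printed 1 higher than in the tables, to count from 1.

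Ratios were log2((FPKM + 1)/(FPKM + 1)) within a table. All genes means a symbol, a valid status and at least 1 FPKM in a column (12344, 11440 and 11084). Members under 1 FPKM were kept. A ratio of at least 2-fold was counted. The joint fits used limma 3.58.1 under R 4.3.3, with a trend of variance on level and Benjamini-Hochberg adjustment. They were also run on simulated ratios with equal effects in both sexes. The ratios here differ between the sexes, so that run does not show how the fits perform on them. Python 3.11.15, pandas 2.3.3, numpy 2.4.6 and matplotlib 3.10.9 were used. FPKM keeps no total count, and strand is not stated. Of the 40 members, 17 overlap another RefSeq gene.

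The members and lists were chosen with earlier results of these data known. All members could be named. Of each other cell cycle list the 2 highest and 2 lowest genes per table could be named, beside Kdm6a and markers (a gene so named is given in all 3 tables). The reporter locus was named after its values were seen. Alternatives were other pseudocounts and filters, centred ratios, TPM, deposited intervals and limma without a trend. Ratios without a pseudocount and the counting of merged loci were chosen after seeing the data.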

Additional observations from a re-analysis of the deposited data

Results flagged for a closer look

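Pttg1, the securin gene, had KO ratios of opposite sign in the sexes, -0.3089 in females and 0.1618 in males on the log2 scale. The difference was not tested, both ratios are small, and the deposited intervals of KO and WT overlapped in each sex. On TPM over all loci, which adds loci without a symbol in males and not in females, Pttg1 was below WT in both sexes.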

How the results depend on the processing

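No paired analysis was possible because the numbered replicates, those of KI and Ctrl-KI, are pooled in 1 column per group. The fit over both sexes takes KO against WT within each sex. Leaving out a sex leaves 1 ratio and no residual degree of freedom, so it gave no test. No direction of a member median changed but 1: in KI it was -0.20 on TPM over all loci. With a pseudocount of 5 FPKM the members at least 2-fold higher were 4 in females and 19 in males. All genes that much higher then numbered 196 in females and 443 in males. The member medians were 0.51, 1.01 and 0.066 (female, male, KI). With 0.1 FPKM the medians were 1.17, 2.51 and 0.29, and without one 1.21, 2.64 and 0.31. Without a pseudocount 26 members were past 2-fold in females, and no count of all genes is given at that setting. TPM over all loci gave 29 members in females and 18 in males, beside 1197 and 253 of all genes, with medians of 1.27 and 0.99. TPM over symbol loci gave 29 in females, beside 1197 of all genes, with medians of 1.27, 2.36 and 0.31. Intervals that did not overlap gave 4, 4 and 2 members. In KI 1 member passed 2-fold with a pseudocount of 0.1 FPKM, without one, with centred ratios and on TPM over symbol loci. All genes past it in KI numbered 602 with 0.1 FPKM, 453 with centred ratios and 679 on TPM over symbol loci. A filter of 5 FPKM gave a KI median of 0.33. That filter gave 2 called members in the limma fit over both sexes, both kept in males through KO alone. The fit then called 120 genes in place of 1. All genes at least 2-fold higher numbered 196 to 1197 in females (554 as reported), 253 to 1799 in males (1132) and 177 to 679 in KI (428), and lower ones 246 to 809 in females (543 as reported), 475 to 2521 in males (740) and 47 to 1683 in KI (99). Intervals stood apart for 82, 69 and 917 genes in the higher and 29, 30 and 413 in the lower direction. The other 39 settings of the main results stayed within 1.5 times the reported count or 0.1 of the reported median. The precision of the members is limited by 1 column per group and by their low FPKM.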
